A study of Mus musculus with 18 samples.

Results

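The 9 genes described here, all of DNA replication and cell cycle entry, were followed across liver of mice on 2 diets with and without caloric restriction or exercise. They are Mcm2, Mcm3, Mcm4, Mcm5, Mcm6 and Mcm7, with Pcna, Ccnd1 and Cdkn1a, 9 of the 24040 genes in the deposited table. Each was taken by its symbol, through the RefSeq transcript with the highest mean over 18 libraries. The libraries hold polyA RNA of whole liver, from C57BL/6J mice of wild-type genotype, and form 6 groups of 3: HF+CR, HF+Ex, HF, LF+CR, LF+Ex and LF. LF and HF are read as a low-fat and a high-fat diet, CR as caloric restriction and Ex as exercise from knowledge of such studies, because the labels give the abbreviations alone. HF and LF mice had no further treatment. Diets and treatments began at 5 weeks of age and livers were taken at 62 weeks. The labels give neither the sex nor the source animal of a library, so each p-value rests on the spread between these samples alone, and that spread may be technical.

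The Mcm2 to Mcm7 proteins form a ring, the core of the replicative helicase. In G1 phase the ring is loaded on DNA at replication origins, a step called licensing, and in S phase it is activated with Cdc45 and the GINS complex to unwind the duplex. Pcna is the sliding clamp that holds DNA polymerases on the template and also serves in DNA repair, so it is made in resting cells too. Ccnd1 encodes cyclin D1, which activates Cdk4 and Cdk6 in early G1 and releases E2F transcription factors from the retinoblastoma protein; E2F factors in turn drive the Mcm genes. Cdkn1a encodes p21, an inhibitor of cyclin-dependent kinases and a classic target of p53. Adult hepatocytes are almost all out of the cell cycle, and re-enter it after injury or loss of liver mass.

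Levels are RPKM, read numbers scaled to transcript length and to the size of the library, as deposited and without counts. Depth is therefore not known, and the step between the lowest values gave a rough estimate of 23900000 to 45700000 reads a library. From 9071 to 9999 genes reached 1 RPKM in a library, and the test covered the 10358 genes that reached 1 RPKM in 3 or more of the 18. Hepatocyte markers summed to between 16220 and 49900 RPKM in a library, although Alb, albumin, was listed at 0 in all but HF 1 and the 3 HF+Ex libraries. Of 13 listed pancreatic acinar transcripts, Cela1 reached 1 RPKM in every library. The 13 summed to 2318 RPKM in LF+CR 1, to 397 RPKM in HF+CR 1 and to 43.9 RPKM in LF+Ex 1. The median over the 18 libraries was 9.27 RPKM. In HF+CR 2 they summed to 38.6 RPKM, but 11 of the 13 were at 0 there, against 1 in LF+Ex 1. Bile duct markers were highest in HF+CR 3, at a sum of 185 RPKM, and in LF 2, at 161 RPKM, against a median of 44.7 RPKM. Differences are of log2(RPKM + 1), the first-named group minus the second, ± SE from limma, and called genes are those whose p, adjusted by Benjamini-Hochberg over all 10358, was under 0.05. On this scale the difference of a gene near or below 1 RPKM is smaller than the fold of its RPKM.

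The helicase genes were near the lower end of what was measured, apart from Mcm7. Mcm2 (NM_008564, chr6:88883474-88898780 on GRCm38.p6), Mcm3 (NM_008563, chr1:20802966-20820312), Mcm4 (NM_008565, chr16:15623897-15637400), Mcm5 (NM_008566, chr8:75109468-75128439) and Mcm6 (NM_008567, chr1:128331575-128359705) averaged 1.27, 1.36, 0.873, 0.581 and 1.17 RPKM over the 18 libraries, and Mcm7 (NM_008568, chr5:138164583-138172111) averaged 5.01 RPKM. Mcm7 was the highest of the ring genes in 18 of 18 libraries, by 1.83 to 6.51 times the next one. Mcm5 was the lowest in 16 libraries and Mcm4 in the other 2. Mcm7 took 34.1% of the summed RPKM of the ring genes in HF+Ex 1, its lowest share, and 65.7% in LF+CR 1, its highest. The Mcm7 span overlaps Ap4m1 by 91 bases and holds the microRNA genes Mir25, Mir93 and Mir106b, and the use of strand in counting is not given in the sources used here. All 9 genes passed the filter on low values. Mcm4 passed it through HF+CR 1, HF 1, HF 2 and LF 2. Mcm5 passed it through HF+CR 3, HF+Ex 1 and HF 2 alone, so its being lower on the low-fat diet goes with the filter. With no filter Mcm5 was also called in HF+CR against LF+CR and over the pooled diet groups (limma adjusted p = 0.0466 and 0.00446). Mcm2 reached 1 RPKM in 10 libraries, of which LF 1 and LF 2 alone were low-fat, so it needed high-fat libraries to pass. Its being lower on the low-fat diet thus goes in part with the filter. Without a filter Mcm2 was also called in HF+Ex against LF+Ex and over the pooled diet groups (limma adjusted p = 0.0435 and 0.00747).

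The sequence upstream of 4 of the ring genes is shown because these 4 had the largest positive diet differences of the ring, and E2F factors, known regulators of the family, bind such DNA. Windows are from RefSeq on GRCm38.p6, written 5′ to 3′ in the direction of the gene up to the base before its RefSeq span. Capitals mark the letters TTTCCCGC, TTTCGCGC, TTTGCCGC or TTTGGCGC on either strand, which are E2F-type sites, and overlapping matches run together.
Mcm2, chr6:88898781-88899030, minus strand: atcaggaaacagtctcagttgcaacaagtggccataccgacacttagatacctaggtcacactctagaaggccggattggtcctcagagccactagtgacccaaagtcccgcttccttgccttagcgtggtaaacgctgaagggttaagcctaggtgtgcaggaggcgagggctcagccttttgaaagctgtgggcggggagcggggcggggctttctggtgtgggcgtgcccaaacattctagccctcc
Mcm3, chr1:20820313-20820562, minus strand: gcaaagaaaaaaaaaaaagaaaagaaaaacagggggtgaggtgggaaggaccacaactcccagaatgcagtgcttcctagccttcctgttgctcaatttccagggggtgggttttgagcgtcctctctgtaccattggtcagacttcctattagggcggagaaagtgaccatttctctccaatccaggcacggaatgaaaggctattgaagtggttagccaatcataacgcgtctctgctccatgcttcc
Mcm5, chr8:75109259-75109467, plus strand: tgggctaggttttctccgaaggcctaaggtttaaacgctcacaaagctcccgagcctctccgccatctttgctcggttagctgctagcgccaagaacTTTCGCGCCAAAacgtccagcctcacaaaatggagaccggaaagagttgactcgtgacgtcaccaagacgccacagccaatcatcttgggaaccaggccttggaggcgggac
Mcm6, chr1:128359706-128359955, minus strand: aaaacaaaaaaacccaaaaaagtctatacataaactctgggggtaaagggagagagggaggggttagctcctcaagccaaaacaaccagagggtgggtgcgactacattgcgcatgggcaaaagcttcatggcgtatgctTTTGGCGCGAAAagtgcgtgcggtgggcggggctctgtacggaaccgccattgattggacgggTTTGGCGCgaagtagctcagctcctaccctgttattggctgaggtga
In the 250 bases before the RefSeq start, Mcm5 held 2 overlapping matches and Mcm6 held 3, of which 2 overlap, whereas Mcm2 and Mcm3 held 0. Mcm3 held 2 in its first 50 transcribed bases. At the upstream of its 2 RefSeq starts Mcm7 held 1 match. Of 32851 RefSeq promoter windows of this length, 611 (1.86%) held a match. The letters CCAAT, on either strand, occurred in the windows of Mcm2, Mcm3, Mcm5, Mcm6, Mcm7 and Pcna and in 33.8% of all windows. A match describes letters and not binding, and the absence of these letters from a window says nothing of the factor.

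Mcm2, Mcm3 and Mcm5 averaged higher on the high-fat diet with each treatment and without, but none was called without treatment. Mcm2 stood at 1.0, 0.949 and 2.28 RPKM in HF+CR livers, 1.97, 2.25 and 1.68 RPKM in HF+Ex livers and 1.5, 2.31 and 1.29 RPKM in HF livers. On the low-fat diet Mcm2 had 0.55, 0.73 and 0.602 RPKM in LF+CR livers, 0.628, 0.511 and 0.937 RPKM in LF+Ex livers and 1.37, 1.51 and 0.82 RPKM in LF livers. Every LF+CR and LF+Ex library lay below every high-fat library, while the LF libraries overlapped with HF and HF+CR. Mcm2 averaged 1.97 ± 0.289 RPKM in HF+Ex livers and 0.692 ± 0.22 RPKM in LF+Ex livers (SD, n = 3 each). This difference, 0.81 ± 0.20, was called (limma adjusted p = 0.0322). The same difference under CR, between 1.41 ± 0.753 RPKM in HF+CR livers and 0.628 ± 0.0925 RPKM in LF+CR livers (SD, n = 3 each), was 0.52 ± 0.20 and missed the threshold (limma adjusted p = 0.108); without HF+CR 3 it was 0.28 (limma adjusted p = 0.347). Without treatment it was 0.27 ± 0.20, for 1.7 ± 0.538 RPKM in HF livers and 1.23 ± 0.364 RPKM in LF livers (limma adjusted p = 0.524). In whole liver, fewer cells of a type and less RNA per cell cannot be told apart.

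Mcm3, another ring subunit, separated the diets under both treatments. Mcm3 stood at 1.48, 1.56 and 1.73 RPKM in HF+CR livers, 2.09, 1.93 and 2.02 RPKM in HF+Ex livers and 1.16, 2.09 and 1.6 RPKM in HF livers. Mcm3 levels in low-fat livers were 0.836, 0.863 and 1.25 RPKM in LF+CR livers, 0.863, 0.896 and 1.02 RPKM in LF+Ex livers and 1.24, 1.25 and 0.649 RPKM in LF livers. The HF+Ex and HF+CR libraries all lay above every LF+Ex and LF+CR library, and only HF 1, at 1.16 RPKM, fell within the low-fat range. Mcm3 averaged 2.01 ± 0.0817 RPKM in HF+Ex livers and 0.927 ± 0.083 RPKM in LF+Ex livers, a called difference of 0.65 ± 0.15 (SD, n = 3 each; limma adjusted p = 0.0257). It was 1.59 ± 0.126 RPKM in HF+CR livers against 0.984 ± 0.233 RPKM in LF+CR livers, a difference of 0.39 ± 0.15 that was not called (limma adjusted p = 0.104). Between HF livers at 1.61 ± 0.464 RPKM and LF livers at 1.05 ± 0.345 RPKM the difference was 0.35 ± 0.15 (limma adjusted p = 0.24).

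Mcm5 was the least abundant ring gene and spread most in relation to its mean. Mcm5 stood at 0.688, 0.464 and 1.51 RPKM in HF+CR livers, 1.05, 0.78 and 0.776 RPKM in HF+Ex livers and 0.831, 1.02 and 0.478 RPKM in HF livers. In low-fat livers Mcm5 had 0.142, 0.262 and 0.287 RPKM in LF+CR livers, 0.252, 0.253 and 0.15 RPKM in LF+Ex livers and 0.491, 0.609 and 0.41 RPKM in LF livers. LF+CR and LF+Ex livers had the lowest values, all at or below 0.287 RPKM, HF+CR 3 the highest, and HF 3 and HF+CR 2 fell within the LF range. The diet difference under CR, between 0.886 ± 0.549 RPKM in HF+CR livers and 0.231 ± 0.0773 RPKM in LF+CR livers, was 0.58 ± 0.17 and was called (SD, n = 3 each; limma adjusted p = 0.0483). It was 0.35 without HF+CR 3 (limma adjusted p = 0.146), and leaving out LF 2 and HF+CR 3 together gave the same difference with an adjusted p of 0.131. Under Ex it was 0.62 ± 0.17, just outside the threshold (limma adjusted p = 0.0545), and without treatment 0.23 ± 0.17 (limma adjusted p = 0.533).

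The other ring genes did not pass the test between the diets in any single comparison. Mcm6 stood at 0.862, 1.24 and 3.04 RPKM in HF+CR livers, 1.57, 1.08 and 1.35 RPKM in HF+Ex livers and 1.11, 2.02 and 0.873 RPKM in HF livers. Mcm6 in livers of the low-fat diet was at 0.865, 0.995 and 1.42 RPKM in LF+CR livers, 0.559, 0.528 and 0.656 RPKM in LF+Ex livers and 1.07, 1.33 and 0.556 RPKM in LF livers. HF+CR 3 stood above the other 17 libraries, and the 3 LF+Ex libraries were, with LF 3, the lowest. Mcm6 differed by 0.56 ± 0.25 in HF+Ex against LF+Ex, with no overlap of the groups (limma adjusted p = 0.20). Mcm4 stood at 1.05, 0.86 and 0.917 RPKM in HF+CR livers, 0.769, 0.972 and 0.994 RPKM in HF+Ex livers and 1.01, 1.28 and 0.924 RPKM in HF livers. Low-fat libraries of Mcm4 held 0.541, 0.624 and 0.953 RPKM in LF+CR livers, 0.635, 0.607 and 0.672 RPKM in LF+Ex livers and 0.787, 1.35 and 0.767 RPKM in LF livers. LF 2 was the highest library for Mcm4 and the diets overlapped in every comparison but HF+Ex against LF+Ex, where the difference was 0.22 ± 0.13 (limma adjusted p = 0.35). Mcm7 stood at 7.05, 4.92 and 5.55 RPKM in HF+CR livers, 3.86, 4.5 and 3.9 RPKM in HF+Ex livers and 5.22, 5.55 and 6.02 RPKM in HF livers. On the low-fat diet Mcm7 had 5.63, 4.6 and 4.26 RPKM in LF+CR livers, 5.46, 5.06 and 3.63 RPKM in LF+Ex livers and 4.45, 5.92 and 4.58 RPKM in LF livers. For Mcm7 the HF+Ex libraries were among the lowest and HF+CR 1 was the highest. Its difference was -0.16 ± 0.15 in HF+Ex against LF+Ex (95% interval -0.47 to 0.16) and 0.23 ± 0.15 in HF+CR against LF+CR (95% interval -0.09 to 0.54).

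**Figure D1:**
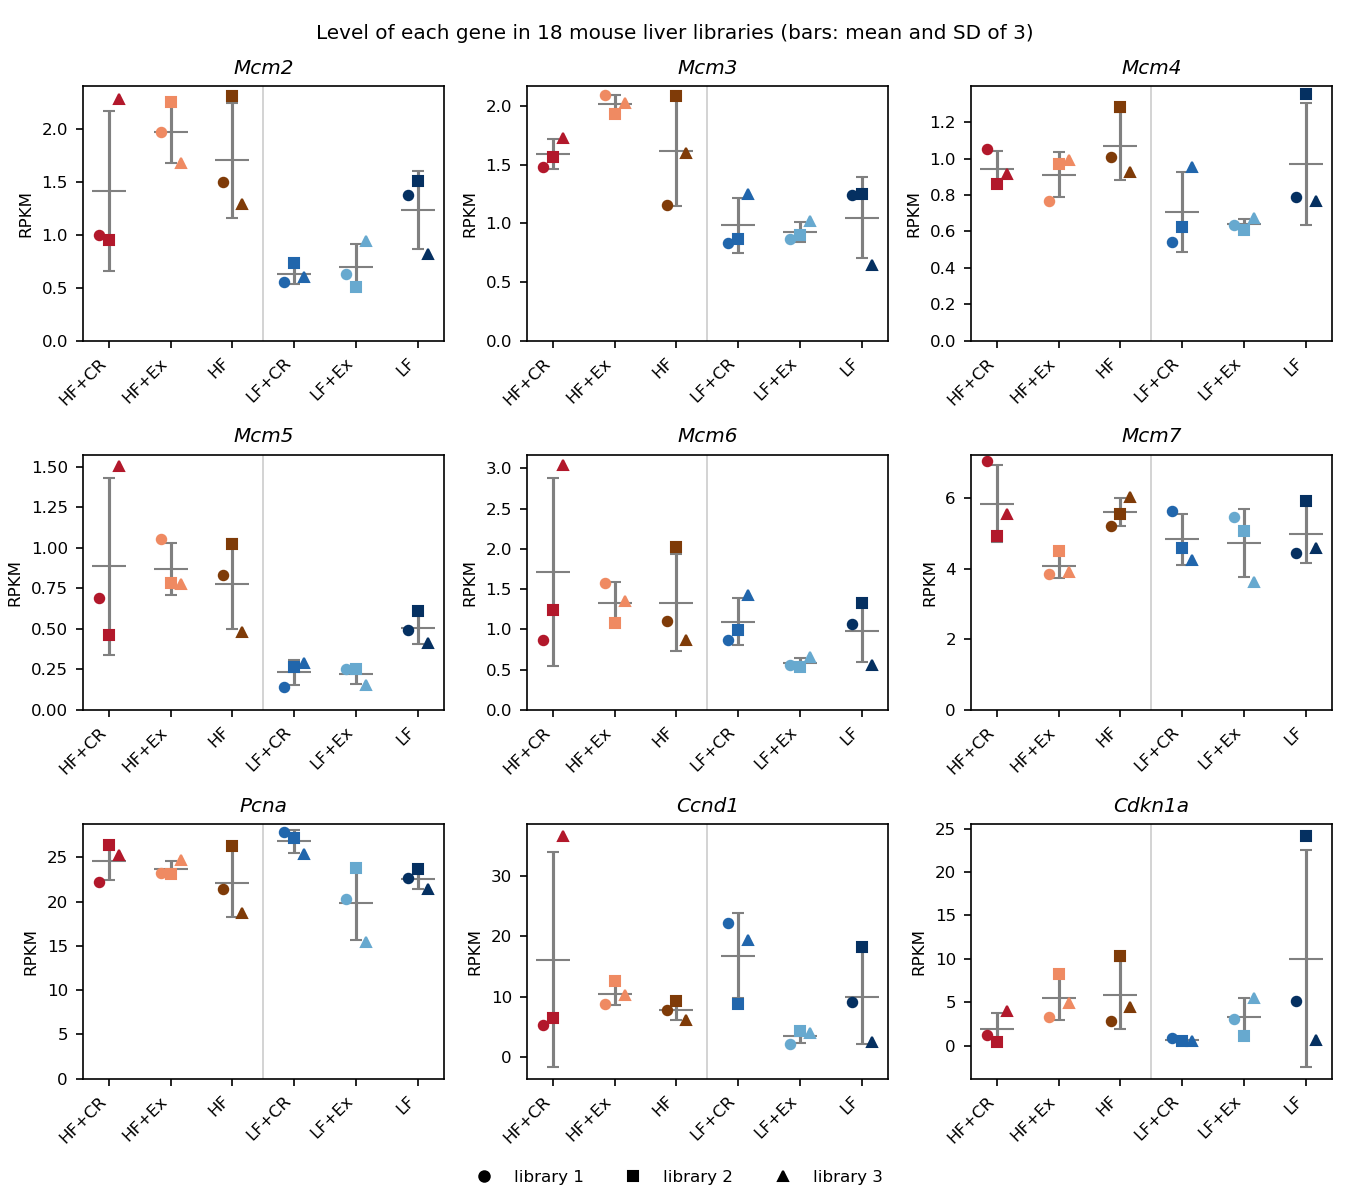
Level of each gene in RPKM (vertical axes) in the 6 groups of 3 mouse livers (horizontal axes, high-fat groups left of the grey line); symbols are libraries and grey bars the mean and SD of 3. The 3 HF+Ex libraries of Mcm3 sit at 1.93 to 2.09 RPKM, above the LF+Ex libraries at 0.863 to 1.02 RPKM, while single libraries stand out for Ccnd1 (HF+CR 3, 36.7 RPKM) and Cdkn1a (LF 2, 24.2 RPKM).

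Counted over the 9 genes, 2 rose in HF+Ex against LF+Ex, Mcm2 and Mcm3, where 5.15% of all genes tested were called. Of those 533 genes 428 were higher in HF+Ex livers, a split that scaling moved to 454 of 756 (median of ratios) and 381 of 720 (quantile normalization). For 6 of the 9 genes all HF+Ex libraries were above all LF+Ex libraries (Mcm2, Mcm3, Mcm4, Mcm5, Mcm6 and Ccnd1), which held for 24.2% of all genes. In HF+CR against LF+CR 1 gene rose, Mcm5, where 9.77% of all genes were called, and 3 (Mcm2, Mcm3 and Mcm5) did not overlap upward, as did 15.6% of all genes. Mcm5 entered the test through high-fat libraries alone, so this call goes with the filter. Mcm2 needed high-fat libraries to enter it, so its call in HF+Ex against LF+Ex goes in part with the filter. In HF against LF limma called 0 of the 9 and 0.405% of all genes. There 1 of the 9, Mcm3, had an unadjusted p under 0.05, beside 16.8% of all genes. Median differences of the 9 genes were 0.62, 0.30 and 0.15 in these comparisons, beside all-gene medians of 0.08, -0.0034 and -0.02. The call of Mcm5 ended in 15 of the 18 fits that each left out 1 library, and the calls of Mcm2 and Mcm3 ended without LF+Ex 1, LF+Ex 2 or any of the HF+Ex libraries. Without LF+CR 1, HF+CR 1 and LF+Ex 1 together, the libraries with the most pancreatic transcripts, these 3 calls also ended (limma adjusted p = 0.260 for Mcm5, 0.146 for Mcm2 and 0.133 for Mcm3).

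The 3 diet comparisons were also pooled as the mean of the 3 high-fat groups against the mean of the 3 low-fat groups, a comparison added after the values had been seen. It uses no samples beyond those above and is a summary of them. Mcm2 rose by 0.54 ± 0.11 (limma adjusted p = 0.00468), Mcm3 by 0.46 ± 0.0843 (limma adjusted p = 0.00194) and Mcm5 by 0.48 ± 0.10 (limma adjusted p = 0.00445), so that 3 of the 9 were called where 23.7% of all genes were. Of the 3, Mcm5 had entered the test through high-fat libraries alone, so its part in this count goes with the filter. Mcm2 had needed high-fat libraries to enter it, so its part goes partly with the filter. Mcm6 differed by 0.36 ± 0.14 (limma adjusted p = 0.0803) and Mcm4 by 0.17 ± 0.0772 (limma adjusted p = 0.13) without passing the threshold. For Mcm7 the difference was 0.07 ± 0.0852 with a 95% interval of -0.11 to 0.25, and for Pcna 0.03 ± 0.0802 with -0.14 to 0.20. The calls of Mcm2, Mcm3 and Mcm5 were kept without the 3 libraries with the most pancreatic transcripts, without LF 2 and HF+CR 3, and without each library in turn. No gene of the 9 had all 9 high-fat libraries above all 9 low-fat ones.

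**Figure D2:**
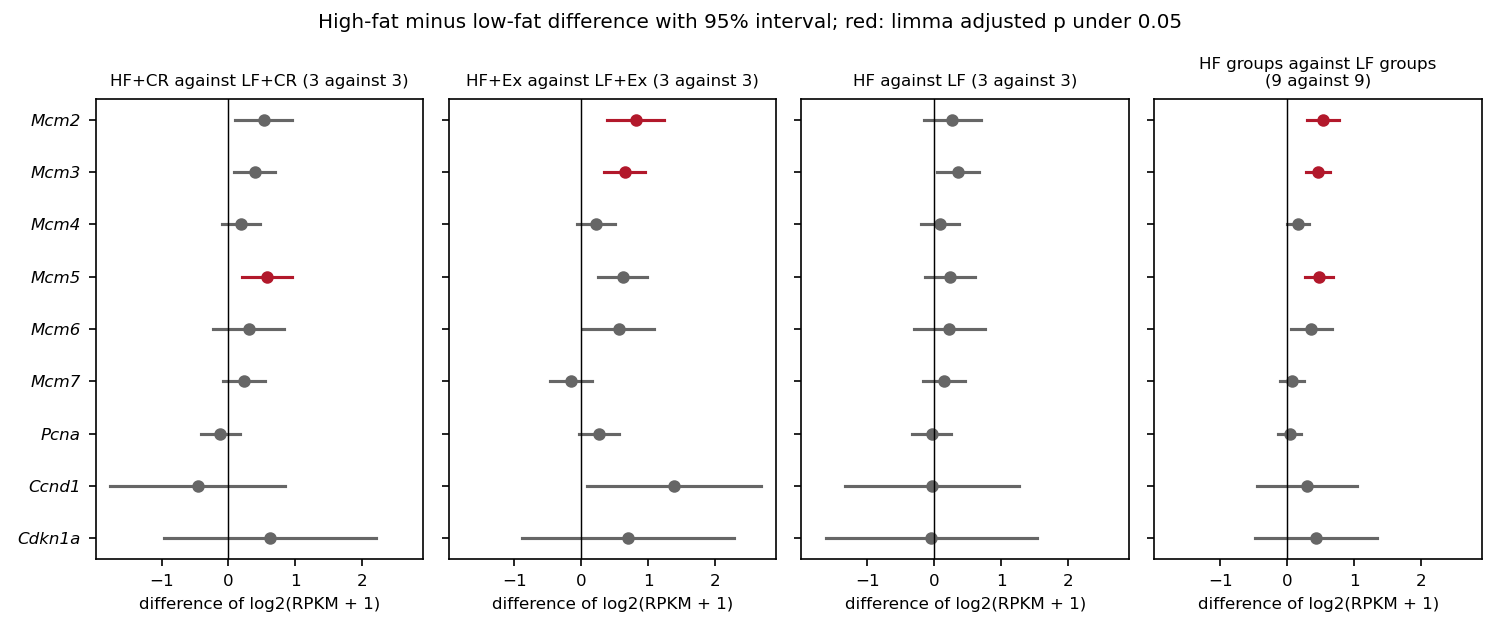
Difference of log2(RPKM + 1), high-fat minus low-fat (horizontal axes), of each gene (rows) under CR, under Ex, without treatment and pooled over the 3; points are limma estimates, lines 95% intervals, red marks an adjusted p under 0.05. Mcm2, Mcm3 and Mcm5 are red in the pooled panel, at 0.54, 0.46 and 0.48, while the pooled intervals of Mcm7 and Pcna include 0. Mcm5 passed the filter on low values through high-fat libraries alone, and Mcm2 needed high-fat libraries to pass it.

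With all libraries, caloric restriction and exercise changed no ring gene past the threshold. On the low-fat diet all 3 LF+CR libraries were below all 3 LF libraries for Mcm2, with a difference of -0.44 ± 0.20 (limma adjusted p = 0.203), and for Mcm5, with -0.29 ± 0.17 (limma adjusted p = 0.356), where 11.7% of all genes separated downward. In LF+CR against LF limma called 0 of the 9 genes and 6.5% of all genes. There 2 of the 9, Mcm2 and Cdkn1a, had an unadjusted p under 0.05, a share close to the 22.4% of all genes. On the high-fat diet, HF+CR against HF, Mcm2 differed by -0.19 ± 0.20 and Mcm3 by 0.00 ± 0.15. Here limma called 0 of the 9 genes and 1.4% of all genes. None of the 9 had an unadjusted p under 0.05, against 14% of all genes. In LF+Ex against LF all 9 differences were negative, with a median of -0.30, and Mcm4 and Mcm5 did not overlap downward, as did 11.4% of all genes. No gene at all was called there (0%), 944 genes had an unadjusted p under 0.05 against 0 of the 9, and the all-gene median was itself -0.13. Scaling by median of ratios brought that median to 0.00, and the differences of Mcm3 and Mcm7 then became 0.01 and 0.06, as did quantile normalization with 0.05 and 0.06; none of these was called. In HF+Ex against HF the 3 HF+Ex libraries of Mcm7 were below the 3 HF libraries, a difference of -0.38 ± 0.15 with an unadjusted p of 0.022 and a limma adjusted p of 1. There 8.06% of all genes separated downward, 0% were called, and Mcm7 was the 1 gene of the 9 with an unadjusted p under 0.05, beside 3.64% of all genes.

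The change of the CR or Ex difference with diet was tested as an interaction. For CR the ring genes gave 0.04 (Mcm3) to 0.35 (Mcm5), and limma called 0 of the 9 and 1.02% of all genes. None of the 9 had an unadjusted p under 0.05, against 11.8% of all genes. For Ex Mcm2 gave 0.54 ± 0.28 (95% interval -0.05 to 1.14; limma adjusted p = 0.818) and Mcm7 -0.30 ± 0.21. No gene was called in that interaction (0%), with 525 genes at an unadjusted p under 0.05 and 0 of the 9. The called diet difference of Mcm2 and Mcm3 under Ex is therefore not shown to differ from that without treatment. Pooled over both diets, a comparison also added later, CR groups against untreated groups gave 0 limma calls among the 9 and 7.18% of all genes. An unadjusted p under 0.05 was found for 2 of the 9, Mcm2 and Cdkn1a, a share close to the 24.2% of all genes. Mcm2 differed by -0.32 ± 0.14 (limma adjusted p = 0.183). Without HF+CR 3 Mcm2 differed by -0.44 and was called (limma adjusted p = 0.0361). Ex groups against untreated groups gave 0 limma calls among the 9 and 0% of all genes, with 1 of the 9, Mcm7, and 729 genes in all at an unadjusted p under 0.05.

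In order of group means, Mcm2 ran from HF+Ex through HF, HF+CR, LF and LF+Ex to LF+CR, and Mcm3 from HF+Ex through HF, HF+CR, LF and LF+CR to LF+Ex. Mcm5 ran HF+CR, HF+Ex, HF, LF, LF+CR and LF+Ex, and Mcm6 HF+CR, HF+Ex, HF, LF+CR, LF and LF+Ex. The 3 high-fat groups thus stood first for these 4 genes. Mcm4 ran HF, LF, HF+CR, HF+Ex, LF+CR and LF+Ex. Mcm7 ran HF+CR, HF, LF, LF+CR, LF+Ex and HF+Ex. Pcna ran LF+CR, HF+CR, HF+Ex, LF, HF and LF+Ex. Ccnd1 ran LF+CR, HF+CR, HF+Ex, LF, HF and LF+Ex. Cdkn1a ran LF, HF, HF+Ex, LF+Ex, HF+CR and LF+CR. Most steps in these orders were within the spread of the groups: over the 9 genes, 6 of the 45 steps between neighbouring means exceeded the larger of the 2 SDs. Those of the ring were Mcm2 and Mcm6 between LF and LF+Ex, Mcm3 between HF+CR and LF, and Mcm5 between LF and LF+CR. The others were Pcna between LF+CR and HF+CR and Ccnd1 between HF and LF+Ex. For Mcm4, Mcm7 and Cdkn1a no step did.

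Mcm2 to Mcm6 varied together over the libraries more than Mcm7 did with them. As a description over 18 libraries of 1 tissue, which share the diet difference, pairs among Mcm2 to Mcm6 had a Pearson r of 0.531 to 0.894 on log2(RPKM + 1), the highest being Mcm2 with Mcm5. Mcm7 had r of -0.049 to 0.315 with the same genes, and Pcna 0.0487 to 0.47. Leaving out LF 2 and HF+CR 3 gave 0.660 to 0.890 for the pairs among Mcm2 to Mcm6.

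The same libraries that were high in Mcm2 to Mcm6 were mostly high in markers of lymphocytes, macrophages and stellate cells, but not of endothelial cells. The 15 lymphocyte markers in the table summed to 4.55 to 11.3 RPKM in high-fat libraries and to 1.4 to 8.79 RPKM in low-fat libraries, of which LF 2 alone was above 3.02 RPKM; 1 to 6 of them were at 0 in a high-fat library and 2 to 8 in a low-fat one. The 12 macrophage markers, Kupffer cell genes included, summed to 248 to 649 RPKM in high-fat and 161 to 475 RPKM in low-fat libraries, with none at 0. The 12 stellate cell and fibroblast markers summed to 87.2 to 174 RPKM in high-fat and 61.4 to 167 RPKM in low-fat libraries, with at most 2 at 0. In the pooled diet comparison, where 23.7% of all genes were called, 6 of 11 tested macrophage and 4 of 11 stellate markers were called higher and none lower. Of these stellate markers Col1a1 reached 1 RPKM in 7 high-fat and 2 low-fat libraries, so its call goes in part with the filter. Of the lymphocyte markers 4 passed the filter on low values (Cd79a, Cd79b, Nkg7 and Ptprc), in the low-fat diet through LF 2 and, for Ptprc, LF+Ex 2 as well, so no count of calls is read from them. Of 7 tested bile duct markers 1 was higher, and of 10 endothelial markers 1 was higher and 1 lower. The endothelial markers summed to 78 to 99.3 RPKM in high-fat and 82.3 to 106.5 RPKM in low-fat libraries. Of 9 hepatocyte markers 4 were lower (Tat, Hnf4a, Cps1 and Fgb), and 1 was higher, Alb, which is listed at 0 in most libraries. As a description, the mean of the 6 ring genes correlated over the 18 libraries with the mean of the tested stellate markers at r of 0.916. With the tested macrophage markers r was 0.803. With bile duct, endothelial, hepatocyte and erythroid markers it was 0.562, 0.362, 0.219 and -0.0569. The hepatocyte mean includes Alb, listed at 0 in all but HF 1 and the 3 HF+Ex libraries, so its r is not read as hepatocyte content. These libraries share the diet difference. No r is read from the 4 tested lymphocyte markers, for the reason given above. For Mcm7 alone the stellate and macrophage r were 0.223 and 0.085, and for Pcna 0.31 and -0.011. The part of these cells in the diet differences of Mcm2, Mcm3 and Mcm5 was not tested.

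**Figure D3:**
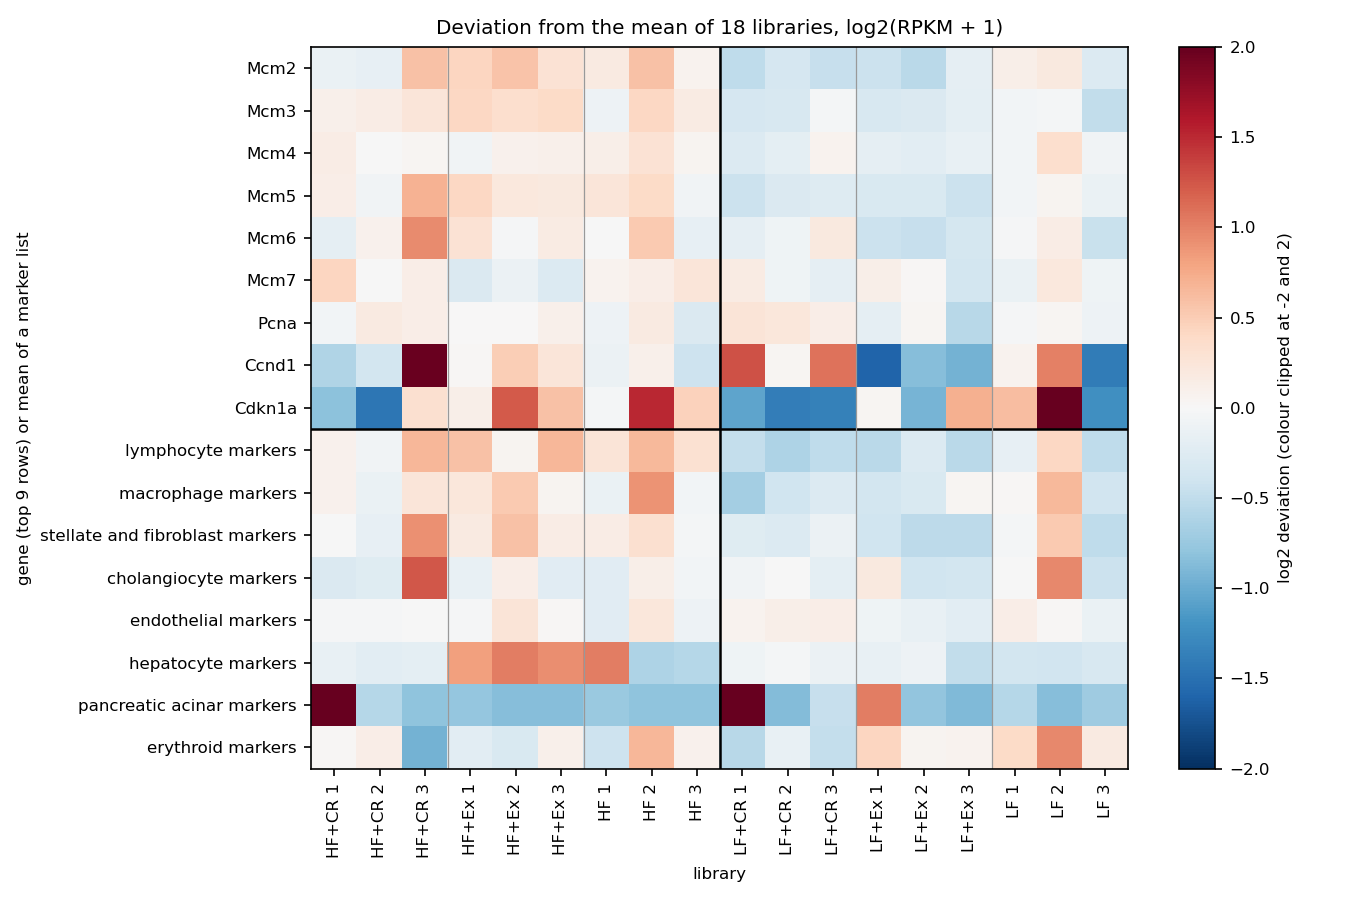
Deviation of log2(RPKM + 1) from the mean of 18 libraries (colour) for the 9 genes and for the mean of each marker list (rows) in each library (columns; high-fat groups left of the black line). Mcm2, Mcm3, Mcm5 and the lymphocyte, macrophage and stellate markers are mostly red on the left and mostly blue on the right, with LF 2 an exception, whereas Mcm7 and Pcna stay paler. The lymphocyte row is the mean of the 4 tested markers, which passed the filter mostly through high-fat libraries.

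Pcna, the clamp, was more abundant per length than the ring genes, with a coefficient of variation over 18 libraries of 13.5%, against 17.6% to 62.9% for the ring genes. Pcna stood at 22.2, 26.4 and 25.3 RPKM in HF+CR livers, 23.2, 23.1 and 24.7 RPKM in HF+Ex livers and 21.4, 26.3 and 18.7 RPKM in HF livers. Pcna levels in low-fat livers were 27.9, 27.2 and 25.3 RPKM in LF+CR livers, 20.3, 23.8 and 15.4 RPKM in LF+Ex livers and 22.6, 23.7 and 21.4 RPKM in LF livers. The span of all 18 libraries was 15.4 to 27.9 RPKM, with LF+Ex 3 lowest and LF+CR 1 highest. Pcna (NM_011045, chr2:132249286-132253180) was at 26.8 ± 1.32 RPKM in LF+CR livers and 22.6 ± 1.16 RPKM in LF livers, and these groups did not overlap, as for 11.6% of all genes upward. The difference, 0.24 ± 0.14, did not pass the test (limma adjusted p = 0.338), nor did that of HF+Ex against LF+Ex, 0.26 ± 0.14 (limma adjusted p = 0.282). Its diet difference without treatment was -0.04 ± 0.14, with a 95% interval of -0.34 to 0.26.

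Ccnd1, cyclin D1 (NM_007631, chr7:144929931-144939831), spread widely within groups. Ccnd1 stood at 5.33, 6.46 and 36.7 RPKM in HF+CR livers, 8.78, 12.6 and 10.3 RPKM in HF+Ex livers and 7.83, 9.29 and 6.2 RPKM in HF livers. In low-fat livers Ccnd1 had 22.2, 8.83 and 19.4 RPKM in LF+CR livers, 2.17, 4.33 and 3.96 RPKM in LF+Ex livers and 9.09, 18.2 and 2.62 RPKM in LF livers. HF+CR 3 stood alone at 36.7 RPKM beside 5.33 and 6.46 RPKM in the other HF+CR libraries, and the 3 LF libraries spanned 2.62 to 18.2 RPKM. LF+Ex livers were uniformly low, and all 3 were below the HF+Ex livers. That difference, 1.39 ± 0.61 between 10.5 ± 1.9 RPKM in HF+Ex livers and 3.49 ± 1.15 RPKM in LF+Ex livers (SD, n = 3 each), was not called with the shared estimate of spread (limma adjusted p = 0.196). It was called without LF 2 and HF+CR 3, the libraries highest in bile duct markers (limma adjusted p = 0.0274), and when the 2 groups were fitted alone (limma adjusted p = 0.0135). In LF+CR against LF Ccnd1 differed by 0.91 ± 0.61 (limma adjusted p = 0.411), by 0.26 without LF 3 (limma adjusted p = 0.813), and by 1.47 both without LF 2 (limma adjusted p = 0.186) and without LF 2 and HF+CR 3. The last of these was called (limma adjusted p = 0.0453). The mean of the bile duct markers correlated with Ccnd1 at r = 0.628 and that of stellate markers at 0.717 over 18 libraries, and their part in the Ccnd1 levels was not tested. The Ccnd1 span overlaps by 818 bases with the annotated gene LTO1, so some reads of 1 gene could have been counted for the other.

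Cdkn1a, p21 (NM_007669, chr17:29090979-29100722), ranged most of all, from 0.456 RPKM in HF+CR 2 to 24.2 RPKM in LF 2. Cdkn1a stood at 1.26, 0.456 and 3.98 RPKM in HF+CR livers, 3.32, 8.25 and 4.95 RPKM in HF+Ex livers and 2.85, 10.3 and 4.45 RPKM in HF livers. Cdkn1a in livers of the low-fat diet was at 0.911, 0.526 and 0.557 RPKM in LF+CR livers, 3.1, 1.08 and 5.52 RPKM in LF+Ex livers and 5.1, 24.2 and 0.693 RPKM in LF livers. The 3 LF+CR libraries were uniformly low, and so was LF 3, while LF 2 was the highest of the 18. Cdkn1a averaged 0.665 ± 0.214 RPKM in LF+CR livers and 9.99 ± 12.5 RPKM in LF livers (SD, n = 3 each), a difference of -1.95 ± 0.74 that did not pass the test (limma adjusted p = 0.135). It rested on which LF library was kept: without LF 2 it was -0.96 (limma adjusted p = 0.405), and without LF 3 it was -2.90 and was called (limma adjusted p = 0.0161). In HF+CR against HF the difference was -1.29 ± 0.74, between 1.9 ± 1.85 RPKM in HF+CR livers and 5.87 ± 3.93 RPKM in HF livers (limma adjusted p = 0.471). Over both diets CR groups against untreated groups differed by -1.62 ± 0.53 (limma adjusted p = 0.0731), which was -1.12 without LF 2 and not called (limma adjusted p = 0.117). It was -2.09 without LF 3 (limma adjusted p = 0.0097) and -1.86 without HF+CR 3 (limma adjusted p = 0.0459), both called. Its diet differences were 0.62 ± 0.74 under CR, 0.70 ± 0.74 under Ex and -0.04 ± 0.74 without treatment, none called. Cdkn1a correlated with the mean of the macrophage markers at r = 0.814, with Mcm2 at 0.692 and with Pcna at -0.251 over 18 libraries. The part of macrophage content in it was not tested.

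The window upstream of the first of the 2 RefSeq starts of Cdkn1a is shown because it holds the letters of a p53 site, in capitals, and Cdkn1a is known as a p53 target.
Cdkn1a, chr17:29090729-29090978, plus strand: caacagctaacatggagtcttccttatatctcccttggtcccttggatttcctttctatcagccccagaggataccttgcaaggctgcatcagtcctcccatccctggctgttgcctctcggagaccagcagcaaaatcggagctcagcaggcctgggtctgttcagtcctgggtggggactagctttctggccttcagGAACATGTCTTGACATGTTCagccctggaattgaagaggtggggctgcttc
The 20 letters are 2 adjoining p53 half-sites with at most 1 mismatch to the consensus and lie 51 to 32 bases before that start. Of the 32851 promoter windows 25 (0.0761%) held such a pair. The window of the other RefSeq start of Cdkn1a, chr17:29093519-29093768, held none. Of the 2 Cdkn1a transcripts with values, NM_007669 held nearly all of the RPKM. The other, NM_001111099, was highest in HF+CR 3, at 0.36 RPKM. Which of the 2 starts belongs to NM_007669 was not determined, so the site is not placed relative to the measured RNA. Among 19 tested p53 targets other than Cdkn1a, 2 fell in LF+CR against LF and none rose, where 6.5% of all genes were called, 361 of 10358 of them lower. Ei24, an endoplasmic reticulum protein, had 48.9, 40.7 and 34.9 RPKM in LF+CR livers, against 80.2, 65.8 and 65.3 RPKM in LF livers, a difference of -0.76 ± 0.15 (limma adjusted p = 0.00771). Fas, a death receptor, had 5.78, 6.09 and 4.07 RPKM in LF+CR livers, against 11.5, 12.8 and 8.36 RPKM in LF livers, and fell by 0.91 (limma adjusted p = 0.0318). Neither pair of groups overlapped. Mdm2, the ubiquitin ligase that p53 induces against itself, had 9.44, 9.02 and 7.79 RPKM in LF+CR livers and 7.24, 12.5 and 7.68 RPKM in LF livers, groups that overlapped. The list's median difference was -0.15, against 0.00024 for all genes. In the pooled diet comparison 3 of the 19 were called, a share below the 23.7% of all genes: 1 rose, Ccng1, cyclin G1, by 0.37 ± 0.12 (limma adjusted p = 0.0335), and 2 fell, Ei24 by 0.35 and Cdip1 by 0.48 (limma adjusted p = 0.00903 and 0.0101).

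Replication genes outside the ring were described from lists. Of 34 genes of helicase activation and the replication fork in the table, 20 were tested, and 7 rose in the pooled high-fat groups with none falling (list median 0.24, all genes 0.02), beside 23.7% of all genes called, 1451 of 10358 of them higher. They were Rfc1, Rfc2, Rfc4 and Rfc5, which load Pcna on DNA, Rpa1 and Rpa2, which coat single-stranded DNA, and Tipin, a fork protection factor. Rfc4 passed the filter on low values only through 6 high-fat libraries, so its call goes with the filter. Rfc1 rose by 0.29 ± 0.0502 (limma adjusted p = 0.0016), Rpa2 by 0.40 ± 0.0712 (limma adjusted p = 0.00175) and Rpa1 by 0.38 ± 0.0696 (limma adjusted p = 0.00195). The count was 4 without the pancreas-marked libraries and 9 without LF 2 and HF+CR 3. In HF+CR against LF+CR 2 of the 20 rose, Rfc1 by 0.43 ± 0.0869 and Mcm10, an initiation factor outside the ring, by 1.57 ± 0.29 (limma adjusted p = 0.00637 and 0.00395), a share close to the 9.77% of all genes called there. Mcm10 had 17.7, 28 and 18.2 RPKM in HF+CR livers, against 4.01, 8.29 and 7.58 RPKM in LF+CR livers, with no overlap. Pold2, a subunit of DNA polymerase delta, was the 1 of the 20 called with CR over both diets, a share below the 7.18% of all genes. All CR libraries of Pold2 exceeded all untreated ones, as for 0.946% of all genes upward. It had 7.6, 8.39 and 7.85 RPKM in livers of HF+CR mice and 6.91, 7.23 and 8.64 RPKM in livers of LF+CR mice, against 6.24, 4.75 and 4.91 RPKM in livers of HF mice and 5.7, 6.15 and 5.69 RPKM in livers of LF mice, a rise of 0.42 ± 0.0922 (limma adjusted p = 0.0139).

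Of 8 genes of nucleotide supply, all tested, 3 rose in the pooled high-fat groups, Dck among them, and none fell. That is beside 23.7% of all genes called in either direction. Dck, deoxycytidine kinase of the salvage pathway, was at 1.17, 1.14 and 1.12 RPKM in HF+CR livers, 0.83, 1.02 and 1.1 RPKM in HF+Ex and 0.788, 0.882 and 0.681 RPKM in HF livers, against 0.627, 0.555 and 0.465 RPKM in LF+CR, 0.284, 0.367 and 0.426 RPKM in LF+Ex and 0.425, 0.474 and 0.463 RPKM in LF livers. Dck passed the filter on low values only through 5 high-fat libraries, so that its being lower on the low-fat diet goes with the filter. For that reason neither the separation of its libraries by diet nor its calls under CR, under Ex and pooled are read as a result. Dtymk, thymidylate kinase, and Tyms, thymidylate synthase, rose by 0.39 ± 0.0903 and 0.21 ± 0.0606 (limma adjusted p = 0.00701 and 0.0204). Of 8 tested origin licensing genes 1 rose, a share below that of all genes. It was Orc4 of the origin recognition complex, which rose by 0.31 ± 0.10 (limma adjusted p = 0.0335). Cdc6, which loads the ring with Cdt1, was at or below 0.0533 RPKM in all 18 libraries and was not tested.

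Genes of G1 control, of later phases and of inhibition had few calls. Of 17 tested G1 cyclins, CDKs and E2F-RB genes, none rose in the pooled high-fat groups and 1 fell, below the 23.7% of all genes called. It was Ccnd3, cyclin D3, which fell by 0.27 (limma adjusted p = 0.0259). It had 12.8, 12.2 and 17.8 RPKM in HF+CR, 13.2, 15.2 and 15.4 RPKM in HF+Ex and 11.1, 15 and 14.6 RPKM in HF livers, against 14.3, 16.8 and 15.3 RPKM in LF+CR, 18.8, 17.9 and 15.8 RPKM in LF+Ex and 19.5, 19.9 and 16.9 RPKM in LF livers, with overlap. Of 36 S, G2 and M phase genes, 4 passed the filter on low values. In the pooled diet comparison limma called 0 of these 4, with 1 at an unadjusted p under 0.05, beside 37.5% of all genes. Over all 12 comparisons 0 were called and 6 results had an unadjusted p under 0.05. Of all genes, 3.64% (HF+Ex against HF) to 37.5% (pooled diet) had such a p in a comparison. HF+CR 3 was the highest library for 26 of the 36 and HF 2 for 8. Mki67, a proliferation marker, stood at 1.04 RPKM in HF+CR 3 and 0.714 RPKM in HF 2, and Top2a, topoisomerase II, at 0.976 and 0.706 RPKM. Mki67 was at or below 0.0957 RPKM in the LF+CR and LF+Ex libraries. Of 4 tested CDK inhibitors other than Cdkn1a, limma called 0 in the 12 comparisons, and 0 had an unadjusted p under 0.05. Cdkn2c, the inhibitor p18, was highest in HF+CR 3, at 6.31 RPKM, and HF 2, at 5.63 RPKM, and lowest in LF 3, at 0.587 RPKM.

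FoxO and glucocorticoid responsive liver genes, were listed because FoxO factors are known to induce Cdkn1a. Of 19 tested, 7 fell and none rose in the pooled high-fat groups (Tat, Pck1, Fkbp5, Irs2, Angptl4, Sds and Igfbp1; list median -0.37, all genes 0.02), where 1002 of all 10358 genes fell. In LF+CR against LF 2 of the 19 were called, Tat and Sds, beside 6.5% of all genes. Tat, tyrosine aminotransferase, had 1432, 1168 and 890 RPKM in LF+CR livers, against 290, 277 and 281 RPKM in LF livers, a rise of 2.01 ± 0.22 (limma adjusted p = 0.000207). Sds, serine dehydratase, rose there by 1.73 ± 0.45 (limma adjusted p = 0.0336). Tat also rose in HF+CR against HF, by 0.95 ± 0.22 (limma adjusted p = 0.0496). It was the 1 gene of the list called there, beside 1.4% of all genes. In HF+Ex against LF+Ex 3 of the 19 were called, Tat, Klf9 and Pck1, all lower, beside 5.15% of all genes. In HF+CR against LF+CR 5 of the 19 were called, beside 9.77% of all genes. Tat, Fkbp5, Pck1 and Sds were lower, and Klf9 was higher, by 0.43 ± 0.13 (limma adjusted p = 0.0463). Pck1, the gluconeogenic carboxykinase, had 431, 371 and 992 RPKM in HF+CR livers, against 1679, 1853 and 1442 RPKM in LF+CR livers, and fell by 1.60 (limma adjusted p = 0.00796). In the same livers Cdkn1a differed by 0.62 ± 0.74 with no call.

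**Figure D4:**
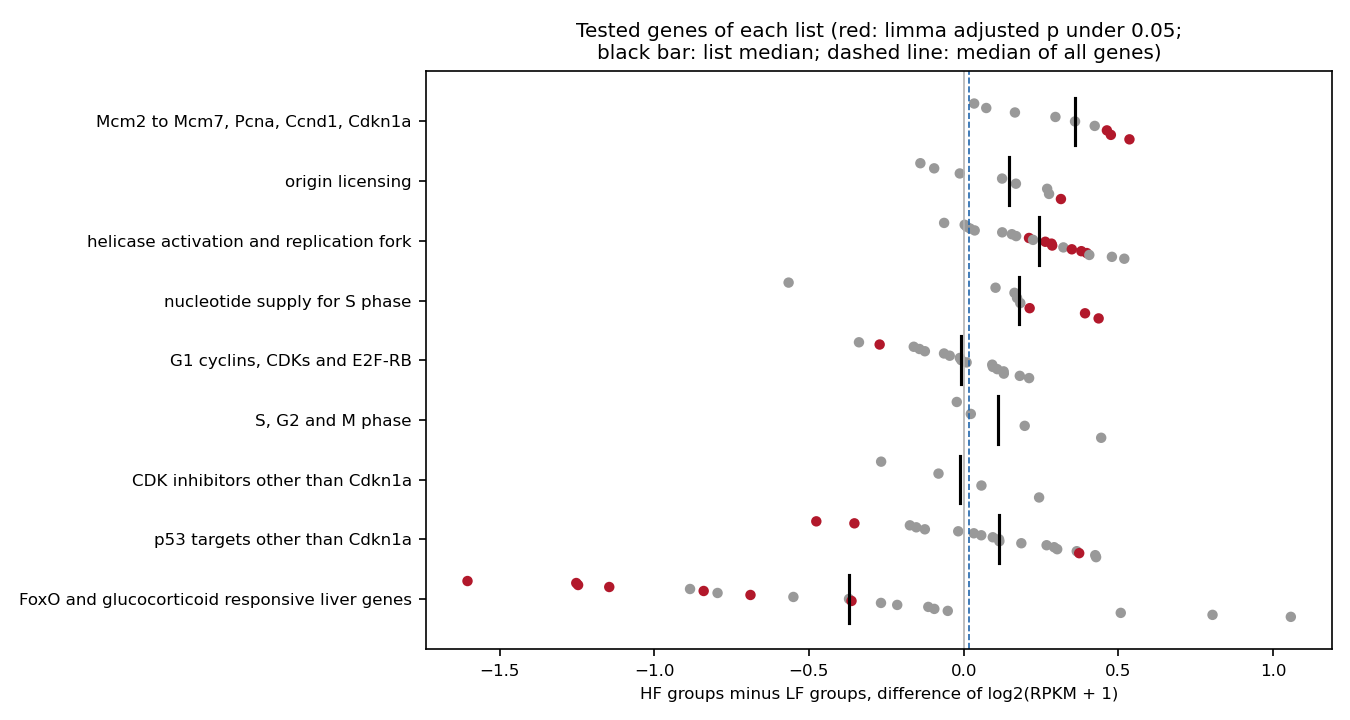
Difference of log2(RPKM + 1), high-fat groups minus low-fat groups (horizontal axis), of every tested gene (points) in the 9 genes and in each list (rows); red marks a limma adjusted p under 0.05, black bars are list medians and the dashed line the median of all genes. Called genes lie to the right for the replication fork list (7 of 20) and nucleotide supply (3 of 8) and to the left for the FoxO and glucocorticoid list (7 of 19). Rfc4 and Dck, counted here, passed the filter on low values only through high-fat libraries.

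The genes whose levels followed these 9 most closely over the 18 libraries are given by Pearson r on log2(RPKM + 1), as a description. With the mean of the 6 ring genes they were Lbh (0.953), Tpm3 (0.950), Msn (0.948), Neurl3 (0.945), Ccdc80 (0.943) and Lyz1 (0.942), and 4.5% of all genes had r above 0.8. With Pcna they were Ier3ip1 (0.864), Slc25a37, Cd82, Spred1, Pdlim1 and Cep83 (0.821), and 0.087% of genes exceeded 0.8. With Ccnd1 they were Pygb (0.911), Pgd, Ccnd2 (0.896), Smoc2, Ikbke and Faap20 (0.870). Ccnd2 is cyclin D2, a relative of cyclin D1, and was highest in HF+CR 3, at 2.32 RPKM, and next in LF+CR 3, at 1.83 RPKM. With Cdkn1a they were Tor3a (0.964), Scamp5, Abcb4, Il4ra, Ly6d and Tgm2 (0.882).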

How the data were processed

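Liver polyA RNA of 18 libraries, 3 in each of 6 groups, was analysed from RPKM values that the authors deposited per RefSeq transcript; 550476 of 550476 values in the sample files equalled those of the series table. The submitters' processing notes name TopHat 1.4.1, Cufflinks 1.3.0 and mm10; the annotation version, read totals and use of strand are not given in the sources used here. Of 30582 transcripts, 29438 were named through RefSeq (GRCm38.p6), 179 through GENCODE, and 965 kept their ID; the transcript with the highest mean stood for each of 24040 genes. The 10358 genes that reached 1 RPKM in 3 or more libraries were tested on log2(RPKM + 1) with limma 3.58.1 in R 4.3.3, over 6 group means and all libraries with an intensity trend, two-sided, adjusted by Benjamini-Hochberg, threshold 0.05. The procedure was tested on simulated data. Named genes are the 9, up to 4 called genes per list and comparison by adjusted p, and the 6 nearest by correlation. Not every called list gene is named for each comparison, so a gene left out may still have been called. The further called genes of the fork and FoxO lists, Mdm2, Cdc6, Mki67, Top2a and Cdkn2c were chosen after their values were seen. Members and lists were chosen with earlier results of these data known, and the pooled comparisons were added after the values were seen. Alternatives changed the pseudocount, filter, scaling, trend, transcript choice, groups fitted, replicate block and libraries kept.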

Additional observations from a re-analysis of the deposited data

How the results depend on the processing

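Of 3060 results of the 9 genes under alternatives, 3010 stayed on their side of the threshold, 31 lost a call, 19 gained one and 0 called differences reversed; 113 uncalled differences changed sign. Of the 9 genes, the number called in HF+CR against LF+CR (1) became 0 with only the groups compared, with the replicate block, without the pancreas-marked libraries, without LF 2 and HF+CR 3, and at a mean of at least 5 RPKM, a filter that leaves out every ring gene but Mcm7; leaving out 1 library gave 0 to 1. In HF+Ex against LF+Ex the count (2) was 0 at that filter and without the pancreas-marked libraries, 5 with only the groups compared and 4 without LF 2 and HF+CR 3, and leave-one-out gave 0 to 3. In LF+CR against LF the count (0) was 1 without LF 2 and HF+CR 3 and 0 to 1 on leave-one-out. The pooled diet count (3) was 0 at the filter of 5 RPKM and 3 to 4 otherwise, 3 with the replicate block; the pooled CR count (0) was 0 to 2 on leave-one-out. Apart from the filter and the smaller samples, the cause was not tested. Same-numbered samples did not deviate together (45 pairs, r -0.49 to 0.31, median 0.0), so the replicate block shares only a number. Over all genes HF against LF gave 42 calls, 203 with median-of-ratios scaling and 283 with quantile normalization; in the pooled diet comparison 1451 of 2453 calls were higher, against 1513 of 2924 and 1327 of 2911 under these scalings. Without counts, depth sets an unknown limit on Mcm2 to Mcm6, which lie near 1 RPKM.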
